A study of Mus musculus with 5 samples.

Results

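Cadherins and protocadherins are calcium-dependent adhesion proteins of the cell surface. Every gene of the deposited table whose symbol was Cdh with a number, or began with Pcdh, was taken as a member, and Cdh5, the cadherin of endothelium, was left out. That gave 89 of the 16422 genes tested: 58 clustered protocadherins (14 Pcdha, 22 Pcdhb and 22 Pcdhg genes), 12 other protocadherins and 19 cadherins. Classical cadherins bind like to like across a junction and hold the actin cytoskeleton through catenins. Clustered protocadherin genes lie in tandem arrays, and single neurons express different sets of them, which lets a neuron tell its own branches from those of its neighbours. In the retina cadherins hold Müller glia and photoreceptors together at the outer limiting membrane and take part in matching synaptic partners.

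Nuclear RNA came from retinae of mice with the genotype Aldhl1l-Cre/Ert2+; NuTRAP+ (spelled as labelled), induced with tamoxifen. The recombinase is driven by the Aldh1l1 promoter, which is active in astrocytes as well as in Müller glia, the radial glia of the retina, and NuTRAP puts a biotin tag on nuclei of cells with Cre activity. Positive nuclei, captured on streptavidin beads, came from animals 12, 40 and 55 (n = 3), and Input nuclei, set aside before capture, came from animals 40 and 55 (n = 2). All animals shared the genotype and the induction, no age or sex is given here, the protocol also names brain although the source is labelled retina, and 1 library stands for the retinae of 1 animal. Undissociated tissue, named in the protocol as mostly vessels, had been spun out before the nuclei were divided.

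The deposited values are log2 ratios to a baseline set, gene by gene, by the Input libraries. They hold no expression level and no depth, so members can be compared by their differences between fractions but not by their abundance. The log2 fold change of Positive over Input (log2FC) had a median of -0.02 over all 16422 genes. In bulk nuclei, a different share of a cell type and a different RNA level per nucleus cannot be told apart. Among markers of cell types, all 12 Müller genes lay higher in every Positive library than in both Input libraries, as did 16.7% of all genes. Their median log2FC was 0.44. Markers of other cells were also high: the median was 0.55 for 10 endothelial genes and 0.75 for 9 genes of pigment epithelium and melanocytes, 0.54 for 6 astrocyte genes (Aqp4 is also 1 of the 12 Müller genes) and 0.35 for 6 fibroblast genes. It was 0.25 for 7 mural cell genes, 0.25 for 7 ganglion cell genes and 0.22 for 7 microglial genes. Erg of the endothelial list and Oca2 and Best1 of the pigment list passed the authors' filter in 1 condition only. The microglial median was 0.24 for Positive 12 over the mean Input value, but -0.19 within animal 40 and -0.19 within animal 55. The fibroblast median was 0.61 within animal 40 and -0.14 within animal 55. The median log2FC was 0.04 for 7 rod genes and 0.02 for 5 cone genes. It was -0.05 for 7 amacrine, -0.19 for 5 horizontal and -0.23 for 8 bipolar cell genes.

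The 12 other protocadherins stood highest of the member classes, with a median log2FC of 0.28 and a positive value in 10 of 12. Clustered protocadherins lay at the level of the whole table, with a median of 0.00 and a positive value in 31 of 58. Cadherins were spread on both sides, with a median of 0.06, 11 positive values and 8 negative ones. Over all genes 47.0% of the values were positive, the share to set beside these counts and those below. In 6 of the 12 other protocadherins, 5 of the 19 cadherins and 7 of the 58 clustered genes all 3 Positive libraries exceeded both Input libraries, as happened in 16.7% of all genes. Every Positive library lay below both Input libraries in 0 of the other protocadherins, 2 cadherins and 5 clustered genes, against 21.8% of all genes. These are descriptions of the lists, and no test was made between the classes.

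Limma called 0 of the 89 members at an adjusted p under 0.05, and it called 0% of all genes. The lowest limma adjusted p among members was 0.331, shared by several of them. At an unadjusted p under 0.05 there were 8 members higher in Positive (6.45% of all genes were) and 2 lower (7.76% of all genes were). With a random replicate block for the animal, limma again called 0 members, where it called 0.067% of all genes, while the unadjusted counts were 16 higher and 6 lower (11.9% and 14.3% of all genes). With a fixed one, where Positive 12 drops out because animal 12 has no Input here, 0 members were called and these counts were 13 and 4 (8.46% and 8.93% of all genes). Without any block, and with both directions together, 12 of 89 members had an unadjusted p under 0.05 without Positive 12 (10.2% of all genes), 8 without Positive 40 (8.81% of all genes) and 11 without Positive 55 (19.4% of all genes). There were 7 without Input 40 (8.03% of all genes) and 5 without Input 55 (5.66% of all genes). No verb of change is therefore used for single members, and their values are given as measured.

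**Figure D1:**
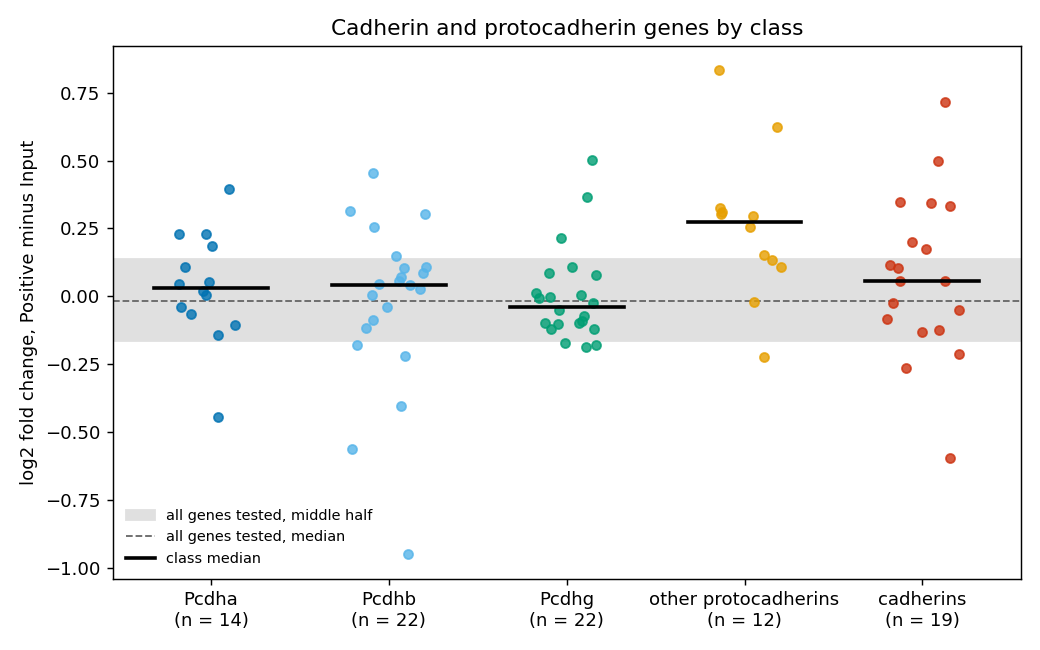
Log2 fold change of Positive over Input for each member by class, with the class median as a black bar; the grey band spans the quartiles of all genes tested and the dashed line their median. The other protocadherins have a median of 0.28, while the medians of the Pcdha, Pcdhb and Pcdhg genes and of the cadherins lie between -0.04 and 0.06.

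Among the other protocadherins, the delta-1 group (Pcdh1, Pcdh7, Pcdh9 and Pcdh11x) had a median log2FC of 0.22 with 4 of 4 positive. The delta-2 group (Pcdh8, Pcdh10, Pcdh17, Pcdh18 and Pcdh19) had a median of 0.25 with 4 of 5 positive. Both groups carry conserved stretches in the cytoplasmic tail. The class median was 0.33 within animal 40, 0.28 within animal 55 and 0.14 for Positive 12 over the mean Input value. In 9 of the 12 genes Positive exceeded Input within both animals, as it did in 31.7% of all genes. The class median was the highest of the 5 class medians in all 13 settings tried, over a range of 0.18 to 0.31. These are not 13 separate checks. The lowest values, 0.18 each, came without Input 55 and without Positive 40. Changes of the variance model and of the filter left the class median at 0.28, and median centring moved every class alike. The fixed block gave the same 0.31 as leaving out Positive 12.

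Pcdh20, a protocadherin gene on chromosome 14 (mm10, 88464747 to 88471396), had log2 values of 0.41, 0.94 and 0.44 in Positive 12, 40 and 55, against 0.00 and -0.06 in Input 40 and 55. The groups did not overlap, and Positive 40 stood highest. The means were 0.60 ± 0.30 (SD, n = 3) in Positive libraries and -0.03 ± 0.04 (SD, n = 2) in Input libraries, which gave a log2FC of 0.63 (SE 0.19; limma adjusted p = 0.331), or 1.54-fold.

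Cdh24, a type II cadherin gene on the same chromosome (54631992 to 54641364), lay at the other end. Its log2 values were -0.68, -0.64 and -0.22 in Positive 12, 40 and 55, against 0.00 and 0.17 in Input 40 and 55. All 3 Positive libraries lay below both Input libraries, with Positive 55 nearest to them. The log2FC was -0.60 (SE 0.17; limma adjusted p = 0.331), or 0.662-fold.

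The 250 bases upstream of the annotated start of Pcdh20 and of Cdh24 are shown because these genes stood at opposite ends of the unclustered members whose promoter was read from the RefSeq set. The build is GRCm38.p6, both windows are read 5′ to 3′ on the minus strand, at chr14:88471397-88471646 for Pcdh20 and chr14:54641365-54641614 for Cdh24, and capitals mark the CG dinucleotides.
Pcdh20: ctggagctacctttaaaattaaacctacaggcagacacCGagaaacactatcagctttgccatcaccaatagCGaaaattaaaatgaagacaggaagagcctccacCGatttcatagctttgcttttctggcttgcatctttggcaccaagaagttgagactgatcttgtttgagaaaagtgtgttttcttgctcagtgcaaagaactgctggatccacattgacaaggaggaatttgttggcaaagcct
Cdh24: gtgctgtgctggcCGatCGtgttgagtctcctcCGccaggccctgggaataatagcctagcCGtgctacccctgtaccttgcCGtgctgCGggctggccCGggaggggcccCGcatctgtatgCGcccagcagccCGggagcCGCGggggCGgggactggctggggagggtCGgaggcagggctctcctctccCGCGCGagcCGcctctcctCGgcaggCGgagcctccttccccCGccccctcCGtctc

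The Pcdh20 window held 3 CG dinucleotides with 42.4% G and C, and the Cdh24 window held 22 with 72.8%. Over all 32851 windows of this length in the RefSeq set, the median was 6 CG dinucleotides with quartiles of 2 and 16, and over the 20 unclustered members matched outside chromosome 18 it was 9. Pcdh18 and Pcdh10, both with positive fold changes, had 23 and 22. The E-box CAGGTG, searched on both strands, was in 2 of the 20 member windows, those of Cdh7 and Pcdh15, against 17.2% of all windows. A match is a match of letters only.

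Pcdh12, also called vascular endothelial cadherin 2, had log2 values of 0.37, 0.23 and 0.24 in Positive 12, 40 and 55, against -1.10 and 0.00 in Input 40 and 55. The Positive libraries lay close together and above both Input libraries, while the Input libraries lay further apart than the Positive mean lay from Input 55. The log2FC was 0.83 (SE 0.34; limma adjusted p = 0.357), the largest of all 89 members, and it was 0.28 without Input 40 and 1.38 without Input 55. All 10 endothelial markers, of which Cdh5 is 1, had positive log2FCs, from 0.30 to 0.76. That of Erg was 0.31 (SE 1.26), with Positive 40 at -2.36. Cdh5, which is no member, had log2 values of 0.46, -0.60 and 0.33 in the Positive libraries of animals 12, 40 and 55, against -1.31 and 0.00 in Input 40 and 55. The part of vascular nuclei in the Pcdh12 value was not tested.

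Pcdh7, which belongs to the delta-1 group, had a log2FC of 0.33 (SE 0.15; limma adjusted p = 0.377). Its log2 values were 0.17, 0.21 and 0.02 in Positive 12, 40 and 55, against 0.00 and -0.39 in Input 40 and 55, so that the fractions barely parted. The value was 0.13 without Input 55 and 0.52 without Input 40. Pcdh9, a gene of 877 kb in the same group, had 0.04, 0.52 and 0.23 in Positive 12, 40 and 55, against 0.00 and -0.10 in Input 40 and 55. Its log2FC was 0.31 (SE 0.16), and 0.18 without Positive 40. Pcdh17, a delta-2 gene, had 0.25 (SE 0.10) and Pcdh18, of the same group, 0.30 (SE 0.11), and in both the fractions did not overlap.

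In the remaining protocadherins the fractions overlapped. The delta-2 gene Pcdh10 had a log2FC of 0.30 (SE 0.17), and Pcdh8, of the same group, had 0.15 (SE 0.18). Pcdh1 had 0.13 (SE 0.11), and 0.21 without Positive 12 against 0.07 without Input 40. Pcdh11x, an X-linked delta-1 gene, had 0.11 (SE 0.16), with the sign turning to -0.13 without Input 55. Pcdh19, the X-linked delta-2 gene of a human epilepsy, had -0.02 (SE 0.11). Pcdh15, which forms the lower part of the tip link of inner ear hair cells and is mutated in Usher syndrome, had -0.22 (SE 0.12; limma adjusted p = 0.433). Its log2 values were -0.35, -0.47 and -0.25 in Positive 12, 40 and 55, against -0.27 and 0.00 in Input 40 and 55, and the ranges overlapped. The log2FC was -0.09 without Input 55 and -0.36 without Input 40. Cdh23, its partner in the tip link, had a log2FC of -0.13 (SE 0.15).

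Type I cadherins, the classical cadherins of adherens junctions, had a median log2FC of 0.05 over 5 genes. Cdh2, N-cadherin, which joins neural and glial cells, stood highest of them. Its log2 values were 0.34, 0.66 and 0.33 in Positive 12, 40 and 55, against 0.00 and -0.10 in Input 40 and 55, without overlap. The means were 0.45 ± 0.19 (SD, n = 3) in Positive libraries and -0.05 ± 0.07 (SD, n = 2) in Input libraries, which gave a log2FC of 0.50 (SE 0.13; limma adjusted p = 0.331), or 1.41-fold. In the same libraries the median log2FC was 0.44 for the Müller, 0.54 for the astrocyte, 0.55 for the endothelial and 0.75 for the pigment epithelium and melanocyte markers, and their part in the Cdh2 value was not tested.

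Cdh1, E-cadherin of epithelia, had log2 values of -0.20, 0.31 and 0.59 in Positive 12, 40 and 55, against -0.20 and 0.00 in Input 40 and 55. Its log2FC was 0.33 (SE 0.25), with Positive 12 at the level of Input 40, and it was 0.55 without Positive 12 and 0.15 without Positive 55. Cdh3, P-cadherin, had 0.05 (SE 0.18) and Cdh4, R-cadherin, first known from the retina, had -0.08 (SE 0.11). Cdh15, M-cadherin of muscle, had -0.26 (SE 0.33), and its sign depended on the Input library: it was 0.25 without Input 55 and -0.78 without Input 40. Beside these, log2FCs were positive in 8 of 9 markers of pigment epithelium and melanocytes, 12 of 12 Müller and 10 of 10 endothelial markers. They were positive in 6 of 7 ganglion cell and 0 of 8 bipolar cell markers. Over the mean Input value, the pigment median was 1.16, 1.00 and 0.64 in Positive 12, 40 and 55. The part of any of these cells in the type I cadherin values was not tested.

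Type II cadherins had a median log2FC of 0.11, with 7 of 11 positive. In every Positive library 4 of the 11 lay above both Input libraries, as did 16.7% of all genes. Cdh19, known from Schwann cell precursors and other glia, had log2 values of 1.13, 0.42 and 0.56 in Positive 12, 40 and 55, against 0.00 and -0.02 in Input 40 and 55. The fractions did not overlap and Positive 12 stood far above the other Positive libraries. The log2FC was 0.72 (SE 0.23; limma adjusted p = 0.333), or 1.64-fold, and 0.50 without Positive 12. Over the mean Input value, the median of the 9 markers of pigment epithelium and melanocytes was 1.16 in Positive 12, 1.00 in Positive 40 and 0.64 in Positive 55, and 5 of the 9 were highest in Positive 12. On the same scale the endothelial markers had a median of 0.76 in Positive 12, 0.40 in Positive 40 and 0.84 in Positive 55. The Müller markers had 0.41, 0.63 and 0.29 and the astrocyte markers 0.46, 0.73 and 0.22 in the same libraries. Positive 12 was also the highest Positive library in 4 of 7 mural, 4 of 7 microglial, 4 of 7 rod and 3 of 6 astrocyte genes. It was so in 3 of 10 endothelial, 2 of 12 Müller and 2 of 6 fibroblast genes, and in at most 1 of each other list. The part of any of these cells in the Cdh19 value was not tested.

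Cdh10 had log2 values of 0.44, 0.44 and 0.15 in Positive 12, 40 and 55, against 0.00 and -0.01 in Input 40 and 55, a log2FC of 0.35 (SE 0.12; limma adjusted p = 0.340). Cdh20 had 0.23, 0.48 and 0.10 in the same Positive libraries, against 0.00 and -0.15 in Input 40 and 55, a log2FC of 0.35 (SE 0.14; limma adjusted p = 0.358). In both genes the fractions did not overlap, and Positive 55 lay nearest to Input. Cdh11, also called OB-cadherin, had 0.11 (SE 0.07) with the fractions apart as well.

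Cdh8 and Cdh9, which in mice guide the axons of different bipolar cell types to their layers, had log2FCs of 0.20 (SE 0.16) and -0.12 (SE 0.09). In Cdh9 the Positive libraries lay within a narrow band, from -0.03 to -0.01, and below both Input libraries at 0.00 and 0.21. The log2FC of Cdh9 was -0.02 without Input 55 and -0.23 without Input 40, and that of Cdh8 was 0.34 without Positive 12 and 0.12 without Positive 40. Cdh7 had -0.21 (SE 0.17), and between -0.33 without Positive 55 and -0.09 without Positive 40. Cdh6, a marker of some ganglion cells, had -0.05 (SE 0.16), and Cdh22 had 0.06 (SE 0.14). Among the atypical cadherins Cdh13, T-cadherin, which is held in the membrane by a lipid anchor, had -0.02 (SE 0.15). The values of Cdh3, Cdh4, Cdh6, Cdh13, Cdh22, Cdh23 and Pcdh19 changed sign in at least 1 of the other settings.

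**Figure D2:**
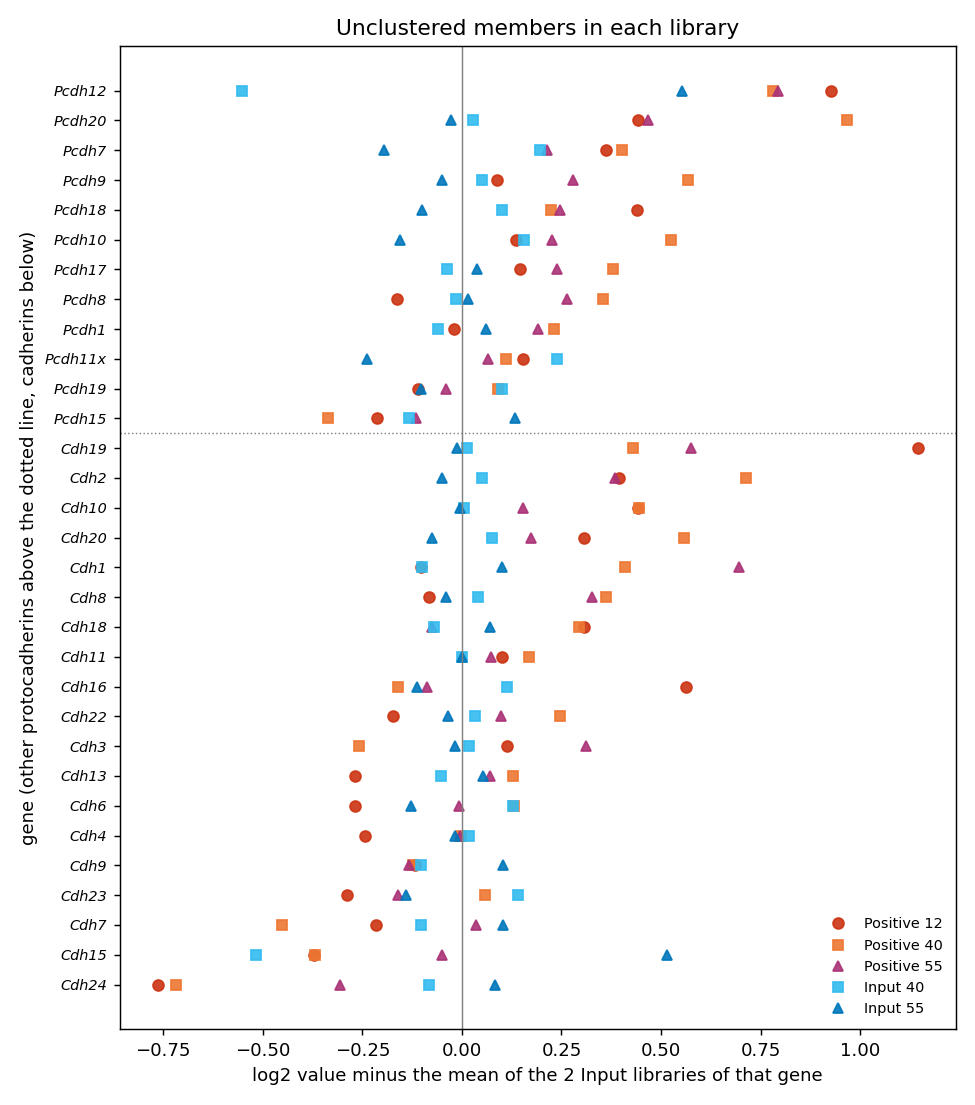
Log2 value of each unclustered member in each library, set against the mean of its Input libraries; red, orange and purple marks are Positive, blue marks are Input, and marks of 1 shape come from 1 animal. In Pcdh20, Cdh2, Cdh10 and Cdh19 all 3 Positive libraries lie right of both Input libraries, in Cdh24 they lie left of both, and in Pcdh12 the Input libraries lie 1.10 apart.

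The clustered protocadherins lie within 911.6 kb of chromosome 18 (mm10, 36930285 to 37841872), in the order alpha, beta, gamma. Each alpha or gamma gene has its own first exon and is spliced to constant exons shared by its cluster, whereas beta genes stand alone. In the deposited annotation all 14 Pcdha genes overlap and end within 3 bases of each other, all 22 Pcdhg genes overlap and end within 9 bases of each other, and 0 of the 22 Pcdhb genes overlap another. How reads of the shared exons were counted is not given in the sources used here, so the values of alpha and of gamma genes are uncertain where reads could be divided among them, and those of close paralogs in any of the clusters likewise.

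The 22 Pcdhg genes had a median log2FC of -0.04 with quartiles of -0.10 and 0.06. Their SD across genes, 0.17, was the smallest, against 0.20 for the Pcdha and 0.31 for the Pcdhb genes. The quartiles were -0.06 and 0.17 for Pcdha and -0.11 and 0.11 for Pcdhb genes, whose SD takes in Pcdhb1 at -0.95. The median SE was also smallest for Pcdhg genes, 0.10 against 0.21 for Pcdha and 0.15 for Pcdhb. Its part in the spread was not tested. The Pcdhg median was -0.11 without Input 40 and 0.04 without Input 55, so its sign rested on the Input libraries. Pcdhga6 had log2 values of 0.56, 0.25 and 0.23 in Positive 12, 40 and 55, against -0.31 and 0.00 in Input 40 and 55, without overlap. Its log2FC was 0.50 (SE 0.16; limma adjusted p = 0.331), or 1.42-fold. Pcdhgb4, in the same part of the cluster, had 0.36 (SE 0.18), with Positive 40 at -0.05, below Input 55, and 0.20 without Input 40. The C-type genes Pcdhgc3, Pcdhgc4 and Pcdhgc5, which are expressed more broadly than the others, had 0.09 (SE 0.09), 0.11 (SE 0.09) and -0.05 (SE 0.10), and each of them changed sign after quantile normalization.

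The Pcdhb genes had a median log2FC of 0.04, with 14 of 22 positive. In every Positive library 4 lay above and 4 below both Input libraries, near the 16.7% and 21.8% of all genes. Pcdhb9 had 0.47, 0.56 and 0.38 in Positive 12, 40 and 55, against 0.03 and 0.00 in Input 40 and 55. It had the lowest unadjusted p of the members, with a log2FC of 0.45 (SE 0.09; unadjusted p = 0.00397, limma adjusted p = 0.331), or 1.37-fold. Pcdhb15 had -0.10, -0.69 and -0.01 in Positive 12, 40 and 55, against 0.00 and 0.58 in Input 40 and 55. Its log2FC of -0.56 (SE 0.29) was -0.27 without Input 55 and -0.85 without Input 40. Pcdhb19 had -0.40 (SE 0.18) and Pcdhb16, which lies between them on the chromosome, -0.22 (SE 0.10), both without overlap. Pcdhb19 had -0.26 without Positive 40 and -0.27 without Input 55. Pcdhb1 had the lowest value of all members, -0.95 (SE 0.32), and is the 1 member of 89 that passed the authors' filter in 1 condition only.

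The Pcdha genes had differences of opposite sign in the paired animals. Their median log2FC was 0.03 over all libraries, -0.11 without Positive 40 and 0.19 without Positive 55, and it was 0.33 within animal 40 and -0.28 within animal 55. In 12 of the 14 the within-animal differences had opposite signs, as they had in 29.9% of all genes, in 4 of 22 Pcdhb genes and in 11 of 22 Pcdhg genes. Of these 12, 9 were higher in Positive than in Input nuclei of animal 40 and lower in those of animal 55, and 3 the other way round. The exceptions were Pcdha9 and Pcdha12, higher in Positive in both animals. Positive 40 was the highest of the 5 libraries in 11 of the 14, against 24.5% of all genes, and Positive 55 the lowest in 7, against 13.6% of all genes. A highest value in Positive 40 was not particular to Pcdha genes. It was found in 7 of 12 other protocadherins, 8 of 19 cadherins, 8 of 22 Pcdhb and 3 of 22 Pcdhg genes.

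Pcdha1 was among the genes with the widest opposite differences, with log2 values of 0.03, 0.25 and -1.05 in Positive 12, 40 and 55, against -0.97 and 0.00 in Input 40 and 55. Pcdha8 had -0.03, 0.34 and -1.16 in the Positive libraries, against -0.79 and 0.00 in Input 40 and 55. Pcdhac1, an alpha gene of the C type, had -0.07, 0.07 and -0.87 in the Positive libraries, against -1.04 and 0.00 in Input 40 and 55. In each of these genes Positive 55 and Input 40 were the low libraries, so that the fractions overlapped. The differences were 1.22, 1.13 and 1.11 within animal 40 and -1.05, -1.16 and -0.87 within animal 55.

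Pcdhac2, the last gene of the array, went the other way, with -0.25, 0.08 and 0.44 in Positive 12, 40 and 55, against 1.06 and 0.00 in Input 40 and 55. Pcdha4 likewise had its highest value, 0.63, in Input 40. The log2FC was 0.23 (SE 0.43) for Pcdhac1 and -0.44 (SE 0.38) for Pcdhac2, and without Input 40 the values were -0.29 and 0.09. Input libraries lay more than 0.5 apart on the log2 scale in 5 of the 14 Pcdha genes, 2 of 22 Pcdhb genes and 0 of 22 Pcdhg genes, as in 10.0% of all genes. Pcdha9 stood outside this pattern, with 0.27, 0.60 and 0.42 in Positive 12, 40 and 55, against 0.08 and 0.00 in Input 40 and 55, a log2FC of 0.39 (SE 0.12; limma adjusted p = 0.331). Whether the pattern lies in the expression of these genes or in how overlapping genes were counted was not tested.

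**Figure D3:**
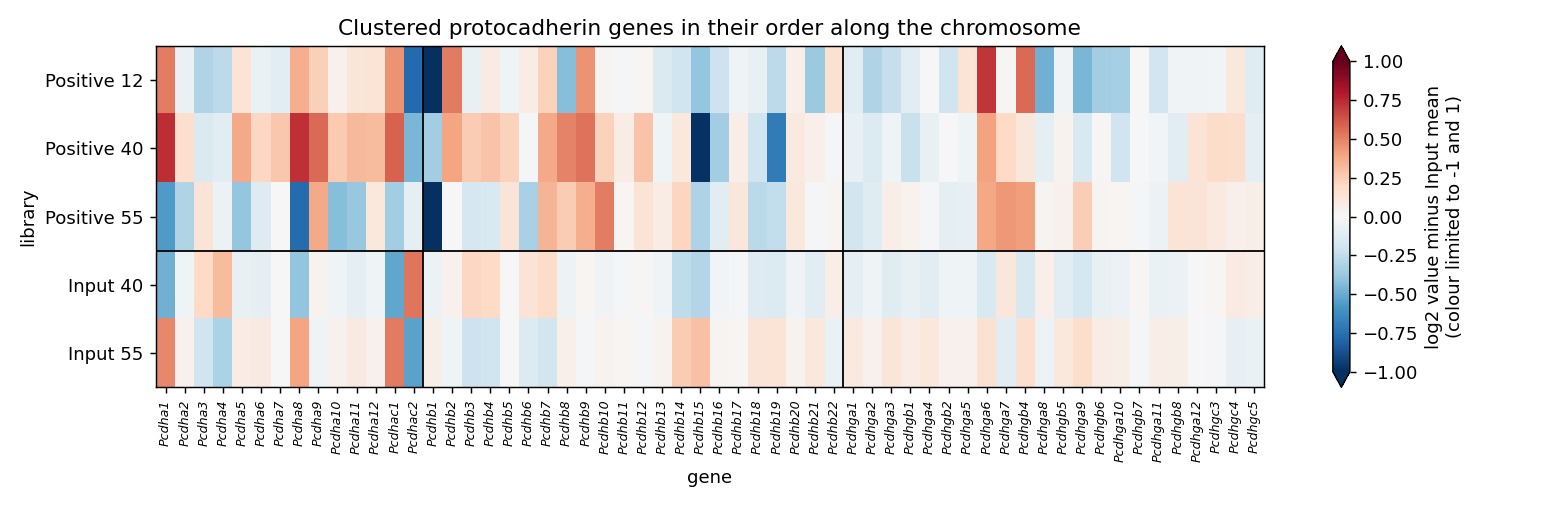
Log2 value of each clustered protocadherin gene in each library (colour, set against the gene's Input mean and limited to -1 and 1), with genes in chromosomal order and black lines between the Pcdha, Pcdhb and Pcdhg genes and between the fractions. Positive 55 and Input 40 are low together in Pcdha1, Pcdha8 and Pcdhac1, while the Pcdhg genes stay pale apart from a few such as Pcdhga6.

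**Figure D4:**
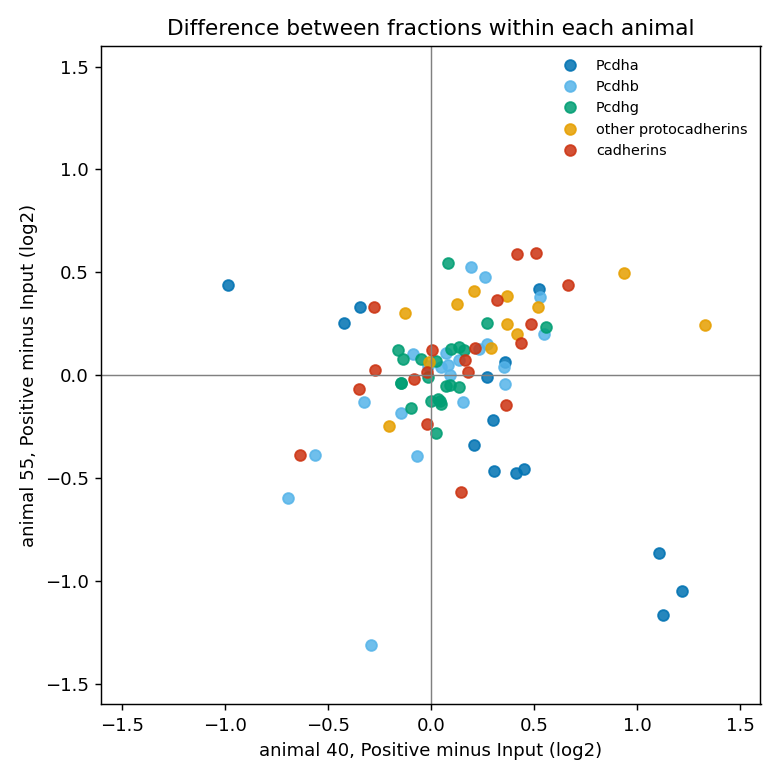
Difference between Positive and Input (log2) within animal 40 on the horizontal axis and within animal 55 on the vertical axis, 1 point per member, coloured by class. Of the 14 Pcdha genes, 9 lie at the lower right and 3 at the upper left, while 9 of the 12 other protocadherins lie at the upper right.

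Partner genes of the cadherins, from lists of known partners, gave 0 calls in limma over all genes. In every Positive library 16.7% of all genes lay above and 21.8% below both Input libraries. Catenins and junction partners had a median log2FC of 0.07 over the 13 measured of 14, with 5 above and 2 below. Jup, which encodes plakoglobin, had 0.25 (SE 0.11) and Ctnna1, the alpha-catenin gene, 0.22 (SE 0.10). Mllt4, which encodes the nectin-binding protein afadin, had -0.19 (SE 0.08), and Plekha7, an adherens junction adaptor, -0.17 (SE 0.09). Other members of the cadherin superfamily had a median of -0.06 over 18 genes, with 3 above and 5 below in every Positive library. Fat2, an atypical cadherin gene, had 0.98 (SE 0.55), in overlapping fractions, and Dsg2, a desmosomal cadherin gene, 0.94 (SE 0.30). Fat2 had 1.48 without Positive 55, and Dsg2 had 0.60 without Input 40. Celsr3, a cadherin of axon guidance, had -0.47 (SE 0.12), and Cdhr2, a cadherin of microvilli, -0.39 (SE 0.51). Fat2 and Cdhr2 passed the authors' filter in 1 condition only.

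Genes that act in the choice of clustered protocadherin promoters, through CTCF, cohesin and chromatin silencing, had a median log2FC of -0.02 over 11 genes, with 1 above and 3 below. Rad21, a cohesin subunit gene, had 0.12 (SE 0.09) and Ctcf 0.10 (SE 0.09), while the histone methyltransferase gene Setdb1 had -0.22 (SE 0.08) and Wiz, a zinc finger gene, -0.22 (SE 0.11). Downstream effectors of protocadherins had a median of 0.04 over 12 genes, with 5 above and 1 below. For both lists the shares over all genes were 16.7% above and 21.8% below. Marcks, an actin-regulating substrate of protein kinase C, had 0.57 (SE 0.18), and Ptk2b, the kinase that clustered protocadherins inhibit, had 0.40 (SE 0.18), and 0.25 without Positive 12. The related kinase gene Ptk2 had -0.03 (SE 0.10) and Brk1, of the WAVE complex, -0.03 (SE 0.11).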

How the data were processed

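The authors deposited log2 values per RefSeq gene for 5 libraries, and no other sample's column. Per the file headers, a gene stayed in if all libraries of 1 or both conditions reached a raw value of 5. The submitters' processing notes name mm10 and DESeq. The aligner, the counting and the use of strand are not given in these sources. In 97.6% of genes an Input value was exactly 0, so the values are relative to an Input level that cancels in differences. No depth or counting error could be given.

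Differences of Positive from Input were fitted in limma 3.58.1 (R 4.3.3) without trend or block, on 16422 genes with 3 residual degrees of freedom and Benjamini-Hochberg adjustment over all of them, two-sided, threshold 0.05 (tested on simulated data). An exact permutation of these libraries cannot give a p under 0.1. Replicates are animals. Positive and Input of animals 40 and 55 are paired per the labels, and across genes their deviations from the fraction means correlated at r = 0.174 and r = 0.195. The deviations of Input 40 and Input 55 are equal and opposite by construction, so these correlations are not separate checks. Random and fixed blocks (consensus correlation 0.514), variance models, scalings, the filter and each left-out library were tried.

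Members, lists and tests were chosen with earlier results of these data known. Named are, in each class, the 4 highest and 4 lowest members by log2 fold change that passed the filter in both conditions, a fixed set of members known in retina or glia, and in each partner list the 2 highest and 2 lowest. Pcdh8, Pcdh10, Pcdh18, Pcdhb1, Pcdha1, Pcdha4, Pcdha8 and Pcdha12 were named after their values were seen. Classes within the families follow general knowledge. Promoters are from RefSeq, matched by gene number and taken nearest to the deposited start, which for Cdh9 lay 49186 bases away and for the other matched members at most 299.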

Additional observations from a re-analysis of the deposited data

How the results depend on the processing

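Limma called 0 members in all 13 settings, the lowest adjusted p being 0.103 with the random replicate block. The median of the other protocadherins stayed between 0.18 and 0.31 and that of the cadherins between 0.04 and 0.10. Leaving out 1 library at a time, 20 to 33 members (most without Positive 12) had every Positive library above every Input library and 8 to 22 below (most without Input 40; 18 and 7 with all libraries), where fewer libraries make separation more frequent by construction; over all genes these shares were 20.6% to 27.6% and 26.0% to 36.1%. The median of the Pcdha genes ran from -0.11 (without Positive 40) to 0.19 (without Positive 55), and that of the Pcdhb genes was -0.015 without Positive 40. The median of the Pcdhg genes ran from -0.11 (without Input 40) to 0.039 (without Input 55), and that of the Pcdhb genes reached 0.13 after quantile normalization. Of 646 comparisons of single genes with other settings, 33 changed sign and 0 became called. The variance models and the filter leave each fold change as it is, and the fixed block repeats the values without Positive 12. The 646 therefore include comparisons that could not change sign. After quantile normalization the log2 fold change was 0.032 for Cdh4, 0.081 for Cdh13, 0.023 for Cdh23, 0.095 for Cdh6, 0.079 for Pcdhgc5, 0.11 for Pcdh19, -0.00049 for Pcdhgc3, -0.039 for Pcdhgc4 and -0.013 for Ctcf. With the random replicate block it was 0.040 for Cdh13, 0.0078 for Cdh6, 0.0039 for Pcdh19, and with the fixed replicate block 0.099 for Cdh13, 0.061 for Cdh6, 0.026 for Pcdh19. With 1 library left out it ran from -0.038 to 0.17 for Cdh22, -0.073 to 0.21 for Cdh3, -0.099 to 0.099 for Cdh13, -0.78 to 0.25 for Cdh15, -0.27 to 0.010 for Cdh23, -0.18 to 0.079 for Cdh6, -0.29 to 0.75 for Pcdhac1, -0.98 to 0.089 for Pcdhac2, -0.12 to 0.015 for Pcdhgc5, -0.13 to 0.35 for Pcdh11x, -0.12 to 0.082 for Pcdh19, -0.10 to 0.046 for Brk1, -0.71 to 0.086 for Cdhr2 and -0.086 to 0.041 for Ptk2. The cause of these changes was not tested. No pseudocount could be varied, since the deposited values are on the log2 scale. The blocks changed no call of a member. The depth behind the values is unknown.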
